A study of Homo sapiens with 8 samples.

Results

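H/ACA small nucleolar RNAs (gene names starting with SNORA) and small Cajal body RNAs (SCARNA) were followed on 8 one-colour Agilent arrays. The members were all non-control probes with such a name, which gave 152 probes of 125 genes, out of 50599 probes of 36337 gene names on the array. They comprised 125 probes of 103 SNORA genes and 27 probes of 22 SCARNA genes. Nthy-ori 3-1, a non-tumoral thyroid follicular line, received the synthetic miRNA precursor pre-miR-375 at 5 nM or its control (CTL). TT, a line of medullary thyroid carcinoma, received antagomiR-375, a complementary oligonucleotide that blocks the miRNA, at 20 nM or its control. These concentrations are those of the labels, and the study's methods give higher ones. The labels name the control cells CTL without the reagent, and the methods name negative control reagents for both kinds of transfection. RNA was taken 48 h after transfection, and each of the 4 groups had 2 arrays. Each group rests on 1 cell line, and no label says whether the 2 arrays of a group came from separate cultures. The methods speak of biological replicates without saying what was repeated, so p-values measure only the spread between these arrays.

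H/ACA RNAs fold into hairpins that pair with other RNAs and guide the conversion of uridine to pseudouridine, carried out by a particle of dyskerin (DKC1), NHP2, NOP10 and GAR1. SNORA RNAs with a known target act mostly on ribosomal RNA in the nucleolus, whereas SCARNA RNAs collect in Cajal bodies and act mostly on the small nuclear RNAs of the spliceosome. Most are cut out of introns of protein-coding or non-coding host genes. SCARNA9, SCARNA17, SCARNA2 and SCARNA7 carry C/D boxes, the signature of guides for ribose methylation, and some other SCARNA RNAs combine both box types. Mature RNAs of this kind have no poly(A) tail, and the labelling kit named by the labels primes on poly(A). A probe therefore reports any labelled RNA that holds its 60 bases, and mature RNA and longer transcripts cannot be told apart. The labels name polyA RNA and the methods total RNA.

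The miRNA that was raised in one line and inhibited in the other is miR-375-3p, shown here with its seed (bases 2 to 8) in capitals, from RefSeq on GRCh38.p14 (chr2:219001648-219001669, minus strand). The array has 0 probes named MIR375, so the miRNA itself was not measured.
hsa-miR-375-3p: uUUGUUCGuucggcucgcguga

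The results turn on the probes of SCARNA9 (chr11:93454973-93455032, plus strand) and SCARNA17 (chr18:47340748-47340807, plus strand), in the hg19 coordinates of the array files. SCARNA9L is a gene on chromosome X (probe at chrX:20154304-20154363, minus strand) named after SCARNA9, and the longest run its probe shares with that of SCARNA9 is 6 bases. All bases are in lower case because no part is singled out.
SCARNA9: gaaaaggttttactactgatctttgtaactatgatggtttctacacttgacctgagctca
SCARNA17: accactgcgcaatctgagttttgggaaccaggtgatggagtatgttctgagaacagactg
SCARNA9L: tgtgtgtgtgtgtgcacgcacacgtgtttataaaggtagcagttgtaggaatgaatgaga

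Between 137 and 140 of the 152 member probes were well above background on each array, 131 were so on every array and 6 on none. Across the array as a whole, 32071 to 37340 of 58717 non-control spots were well above background per array, and 0 were saturated. The precision is limited by the number of arrays, 2 per group. Of 9 C cell markers, 8 were on the array and all of these were well above background on the 4 TT arrays (CALCA, calcitonin, had a mean log2 signal of 18.55 in TT CTL), against 1, RET, on the 4 Nthy-ori 3-1 arrays. Of 8 follicular markers, 4 were well above background on all Nthy-ori 3-1 arrays, among them PAX8 and FOXE1 (10.68 and 8.76 in CTL), against 5 on all TT arrays. TG (thyroglobulin) was higher in TT CTL than in Nthy-ori 3-1 CTL (9.13 against 4.87), as was NKX2-1 (12.28 against 1.96), while TSHR was not well above background on any array and NKX2-1 on none of the Nthy-ori 3-1 arrays. The 27 genes with several probes call for care: of 27 further probes, 12 lay on the strand opposite to the RefSeq probe, 12 on the same strand and 3 could not be settled. Of the 12 opposite-strand probes, 3 were well above background on every array, against 118 of 123 RefSeq probes. The pair of SNORA26 probes, in which the capitals mark 41 bases that are reverse complements of each other, is an example.
SNORA26, RefSeq probe (chr4:53579467-53579526, plus strand): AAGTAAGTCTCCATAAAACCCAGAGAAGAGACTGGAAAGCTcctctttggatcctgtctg
SNORA26, second probe: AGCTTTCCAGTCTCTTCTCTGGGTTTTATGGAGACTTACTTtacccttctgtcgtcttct

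The response of these RNAs to added miR-375 was examined by comparing pre-miR-375 with CTL in Nthy-ori 3-1. SCARNA9 and SCARNA17 were far lower with pre-miR-375, and most other members were higher. The study placed both genes in a list chosen on these samples, so their direction is not independent evidence. Levels are given throughout as quantile-normalized log2 signal, and a log2 ratio is the treated array minus the control array on the same slide.

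SCARNA9 had levels of 11.32 and 10.62 on the CTL arrays and 7.67 and 7.31 on the pre-miR-375 arrays. Both treated arrays lay below both controls, with a log2 ratio of -3.64 in pair 1 and -3.31 in pair 2. The mean log2 ratio was -3.48 (SE 0.14, n = 2 pairs), an 11.1-fold lower signal, and it was the lowest among all 20758 probes with an average level of at least 6 in the line.

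SCARNA17 had levels of 9.95 and 9.10 on the CTL arrays and 6.80 and 5.85 on the pre-miR-375 arrays. Here, too, the groups did not overlap, and the log2 ratios were -3.15 and -3.25. The mean was -3.20 (SE 0.09), a 9.18-fold lower signal, with 0.00963% of the 20758 probes lower still.

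In limma with the Benjamini-Hochberg adjustment over all 50594 probes tested, 0% of probes reached 0.05, members included. Each fit of a line had 1 residual degree of freedom. Known changes put into test arrays did not reach this threshold either, though they were smaller than those of SCARNA9 and SCARNA17 in this comparison. A count of 0 therefore says little about the members. SCARNA9 and SCARNA17 both had an adjusted p of 0.318, which was also the smallest in the comparison. An unadjusted p under 0.05 was found for 57 of 152 member probes (37.5%), against 14.3% of all probes. This outcome depended on the settings. With background correction by normexp, limma called 29 member probes, 24 higher and 5 lower, against 3.09% of all probes. Restricted to probes well above background on both arrays of at least 1 group, it called 12 higher and 3 lower members of 138 (3.8% of all probes tested). The third lower call was the dim second SNORA70B probe, which passed this filter through CTL alone, so it is no support for a direction. On the deposited log2 values limma called 4 higher and 2 lower members (1.12% of all). SCARNA9 and SCARNA17 were among the lower calls in all 3 (adjusted p of 0.0233, 0.0389 and 0.037). The adjusted p of both ranged from 0.0233 to 0.583 over all settings tried.

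**Figure D1:**
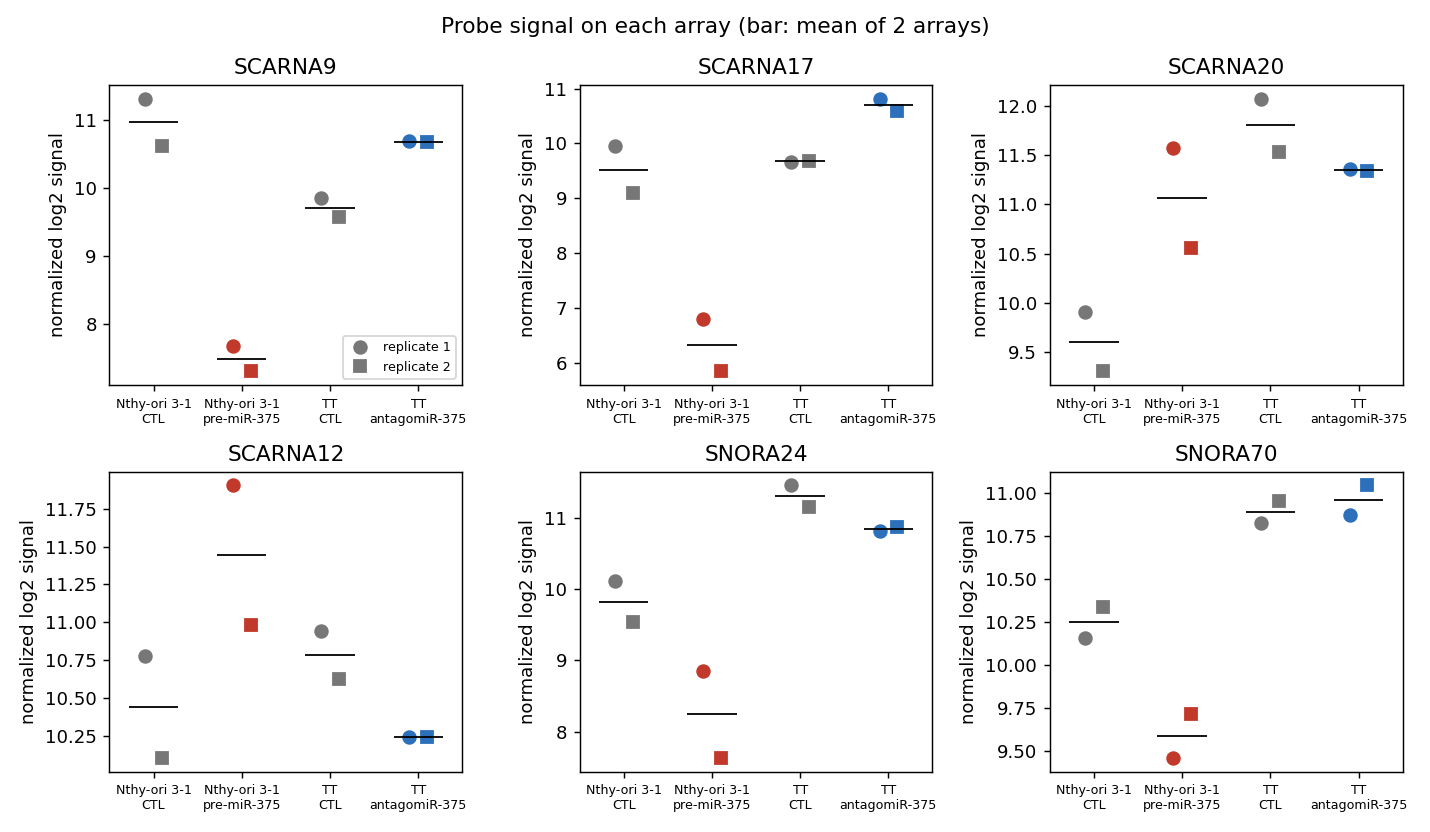
Normalized log2 signal (vertical axis) of 6 member probes on each array, by group; circles and squares are replicates 1 and 2 and the bar is their mean. SCARNA9 and SCARNA17 lie lowest on the pre-miR-375 arrays (7.67 and 7.31 for SCARNA9), where SCARNA20 and SCARNA12 lie above their own controls.

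Without a test, a size rule was used: an average level of at least 6, a mean log2 ratio of at least 1 in size and the same direction in both pairs. By it, 23 of 120 member probes were higher with pre-miR-375, against 1.61% of all probes at that level, and 3 of 120 were lower, against 3.23%. Pair 1 alone, without replicate 2, gave 40 higher members and pair 2 alone 16, and no share of all probes is given for single pairs. The 3 lower probes were SCARNA9, SCARNA17 and SNORA24. Both pairs were higher for 65 of 120 member probes (39.9% of all probes) and lower for 21 of 120 (34.7%). The median log2 ratio of the members was 0.42 (n = 120 probes), against 0.03 for all probes. It was 0.23 with normexp and 0.27 with the deposited log2 values. In the main analysis it was 0.73 for the 21 SCARNA probes and 0.38 for the 99 SNORA probes.

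The SNORA genes with the largest values among those higher in both pairs were SNORA38B, SNORA38, SNORA20, SNORA30, SNORA2A, SNORA23, SNORA63, SNORA5B and SNORA11D, with mean log2 ratios from 1.97 down to 1.34. All are H/ACA RNAs. SNORA38B, held by NOL11, had levels of 6.78 and 5.78 with CTL and 8.88 and 7.62 with pre-miR-375. Its log2 ratio was 1.97 (SE 0.12, adjusted p = 0.318), or 3.91-fold, and both treated arrays exceeded both controls. SNORA38, held by PRRC2A, had levels of 7.09 and 6.58 with CTL and 9.16 and 8.13 with pre-miR-375. Its log2 ratio was 1.81 (SE 0.20). Their probes, printed here because they head the list, share a longest run of 9 bases, in capitals.
SNORA38B (chr17:65736820-65736879, plus strand): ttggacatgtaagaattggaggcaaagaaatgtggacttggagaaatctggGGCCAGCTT
SNORA38 (chr6:31590928-31590987, plus strand): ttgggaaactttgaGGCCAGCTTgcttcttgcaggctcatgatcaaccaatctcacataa

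SNORA20 (held by TCP1) had levels of 6.86 and 6.31 with CTL and 8.89 and 7.78 with pre-miR-375, a log2 ratio of 1.75. SNORA30 (held by SRCAP) had levels of 7.47 and 6.71 with CTL and 9.32 and 8.27 with pre-miR-375, a log2 ratio of 1.70. SNORA23 (held by IPO7) had levels of 9.71 and 8.85 with CTL and 11.28 and 10.29 with pre-miR-375, a log2 ratio of 1.51. In each of these genes both treated arrays lay above both controls. SNORA2A was read by 2 probes that share 37 bases, and these gave 1.57 and 1.38. SNORA5A and SNORA5B, which lie with SNORA5C in TBRG4, have probes that share 38 bases, so their values of 1.27 and 1.36 may not be separate. SNORA63 (1.43), SNORA4 and SNORA81 lie in EIF4A2, and the lowest of the 3 log2 ratios was 0.15.

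Apart from SCARNA9 and SCARNA17, 15 of the other 20 SCARNA genes were higher in both pairs (39.9% of all probes at the minimum level). Another 3 were lower in both (34.7%) and 2 were mixed. The log2 ratios of these 20 genes, taken at any level, ran from -0.84 (SCARNA2) to 1.46 (SCARNA20). SCARNA20 had levels of 9.91 and 9.30 with CTL and 11.57 and 10.56 with pre-miR-375, a 2.76-fold higher signal. SCARNA1 (log2 ratio of 1.27), SCARNA18 (1.04) and SCARNA12 (1.01) also met the size rule. The 3 lower genes were SCARNA2, SCARNA9L (-0.61) and SCARNA15 (-0.65). The brighter SCARNA15 probe lies upstream of the 127 bases of the RefSeq gene, and the probe inside it, with a log2 ratio of 0.29, was not well above background on the second CTL array. SCARNA9L had levels of 8.53 and 7.99 with CTL and 8.24 and 7.05 with pre-miR-375, and these ranges overlapped.

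**Figure D2:**
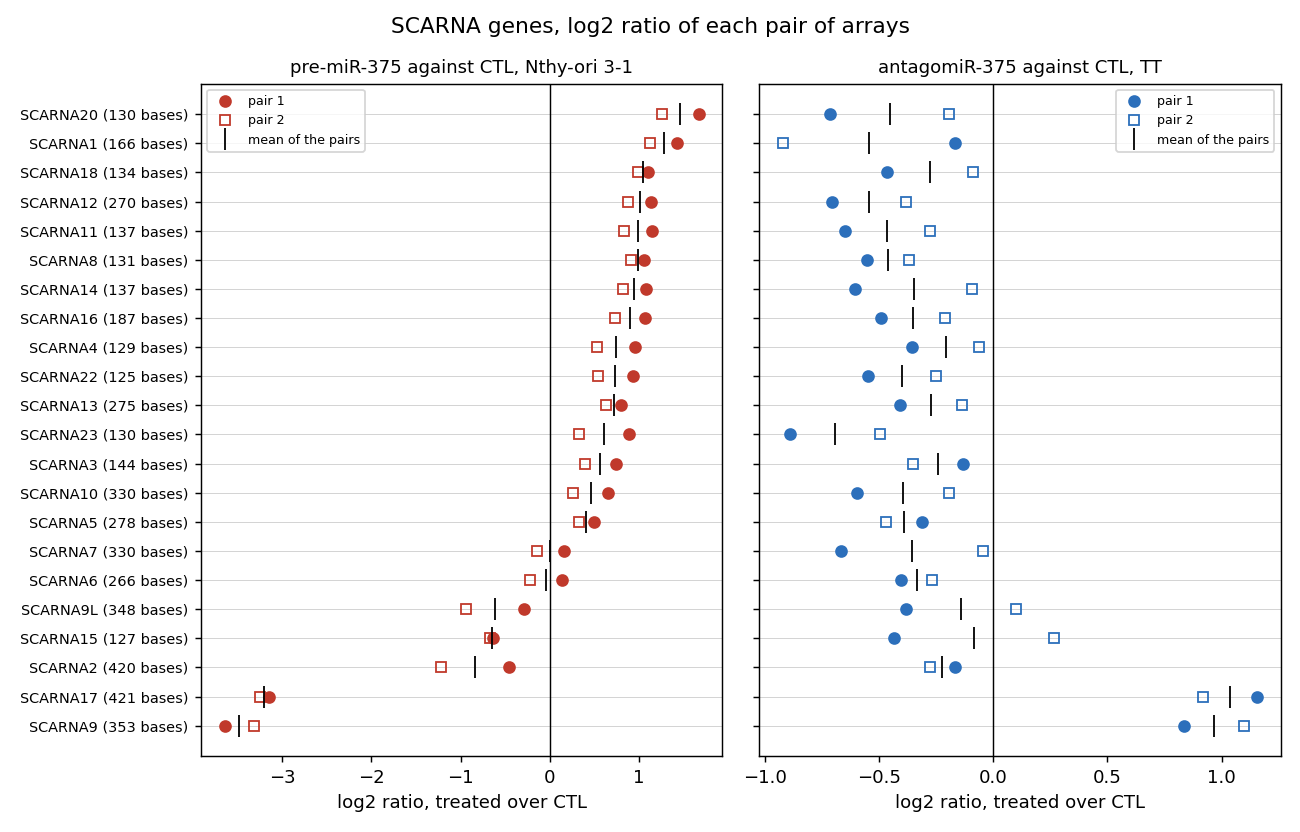
Log2 ratio of treated over CTL (horizontal axis) for each SCARNA gene, by its brightest probe, in Nthy-ori 3-1 (left) and TT (right); filled circles are pair 1, open squares pair 2 and the ticks their mean, with the RefSeq length in brackets. SCARNA9 and SCARNA17 stand at -3.48 and -3.20 on the left and at 0.97 and 1.04 on the right, opposite to most SCARNA genes in both lines.

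RNA length, which the member rule did not use, was set beside the values of the SCARNA genes. The 12 SCARNA genes under 250 bases (125 to 187 bases in RefSeq) had a median log2 ratio of 0.92 with pre-miR-375, and the 10 longer ones (266 to 421 bases) of -0.02. Without SCARNA9 and SCARNA17 the median of the remaining 8 longer genes was 0.21, with values from -0.84 to 1.01. In TT the medians of shorter and longer genes were close (-0.38 and -0.30, or -0.34 for the longer ones without those 2), and between the control groups they were 1.53 and -0.05. In Nthy-ori 3-1 the Spearman correlation between length and log2 ratio was -0.57 over the 22 SCARNA genes and -0.43 without those 2, whereas it was -0.17 over the 103 SNORA genes. These are descriptions across genes of the same 4 arrays, and the 250-base division was drawn after the values were seen. SCARNA9, SCARNA17, SCARNA2 and SCARNA7, named above as carrying C/D boxes, are all among the longer genes. Length and box type were not told apart, and the part of either was not tested. Of the 125 genes, 110 are under 200 bases long, a size range that silica columns such as those named for the extraction recover incompletely, and its part in the result was not tested.

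Of the 103 SNORA genes, taken at any level, 18 were lower in both pairs by their brightest probe. Among all probes at the minimum level, 34.7% were lower in both. The SNORA70 family made up 7 of these 18 genes. All 7 genes (SNORA70 and SNORA70B to SNORA70G, by their brightest probes) were lower with pre-miR-375 in both pairs, with log2 ratios from -0.79 (SNORA70D) to -0.59 (SNORA70B), opposite to the median of the SNORA probes. SNORA70, held by the ribosomal protein gene RPL10, had levels of 10.15 and 10.34 with CTL and 9.46 and 9.71 with pre-miR-375. SNORA70D had levels of 8.33 and 8.50 with CTL and 7.56 and 7.69 with pre-miR-375. In neither gene did the groups overlap, and the log2 ratios of -0.66 and -0.79 (SE 0.08 for both) had an adjusted p of 0.318. The direction was the same in all 7 under each scaling tried. These genes are near copies of each other, and these 7 probes share runs of 12 to 29 bases, so signal of one member on the probe of another is possible and the 7 values are not independent. The probes are printed with the longest run shared with the SNORA70 probe in capitals.
SNORA70 (chrX:153628697-153628756, plus strand): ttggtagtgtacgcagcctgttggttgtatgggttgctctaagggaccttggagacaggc
SNORA70B (chr2:61644396-61644455, minus strand): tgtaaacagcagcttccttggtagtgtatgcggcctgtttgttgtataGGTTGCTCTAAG
SNORA70C (chr9:119943347-119943406, minus strand): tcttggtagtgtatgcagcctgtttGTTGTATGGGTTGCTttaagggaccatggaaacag
SNORA70D (chr16:71732470-71732529, minus strand): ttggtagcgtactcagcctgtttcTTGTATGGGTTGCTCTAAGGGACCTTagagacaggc
SNORA70E (chr11:82752520-82752579, minus strand): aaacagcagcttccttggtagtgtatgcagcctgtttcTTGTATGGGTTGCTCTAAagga
SNORA70F (chr2:165544153-165544212, minus strand): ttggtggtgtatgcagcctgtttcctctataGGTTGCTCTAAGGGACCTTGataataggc
SNORA70G (chr12:69021014-69021073, minus strand): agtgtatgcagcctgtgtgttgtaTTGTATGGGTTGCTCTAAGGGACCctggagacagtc

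Among the other lower genes, SNORA24, held by the non-coding gene SNHG8, had levels of 10.11 and 9.54 with CTL and 8.86 and 7.63 with pre-miR-375. Its log2 ratio was -1.58 (SE 0.24), or 2.99-fold lower, and SNHG8 itself had a log2 ratio of -0.76. SNORA53 had pairs of -1.38 and -0.09, so most of its mean of -0.73 came from pair 1. SNORA56, held by DKC1, was not well above background on either pre-miR-375 array, with levels of 5.43 and 4.48 with CTL, and its signal was at least 1.80-fold lower. A second, dim probe of SNORA70B was at least 1.5-fold lower in the same way. Both bounds set the mean of the brighter group against the lowest signal well above background on the dimmer arrays.

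The pairs differed in size. The median log2 ratio of the members was 0.66 in pair 1 and 0.14 in pair 2, and 86 of 120 members (71.7%) had the same direction in both pairs, against 74.6% of all probes. Most members had a lower ratio in pair 2 than in pair 1, and the correlation between pairs across members was 0.91 (Pearson) and 0.91 (Spearman), against 0.73 and 0.67 across all probes, which describes probes that share an array and carries no p. Among SCARNA probes the direction was the same in 20 of 21. Members also differed between the slides within a group: replicate 1 exceeded replicate 2 by a median of 0.59 among the CTL arrays and by 1.06 among the pre-miR-375 arrays, whereas the median over all probes was 0.01 and -0.02. Slide and replicate number cannot be told apart, and the part of this shift in the ratios was not tested.

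**Figure D3:**
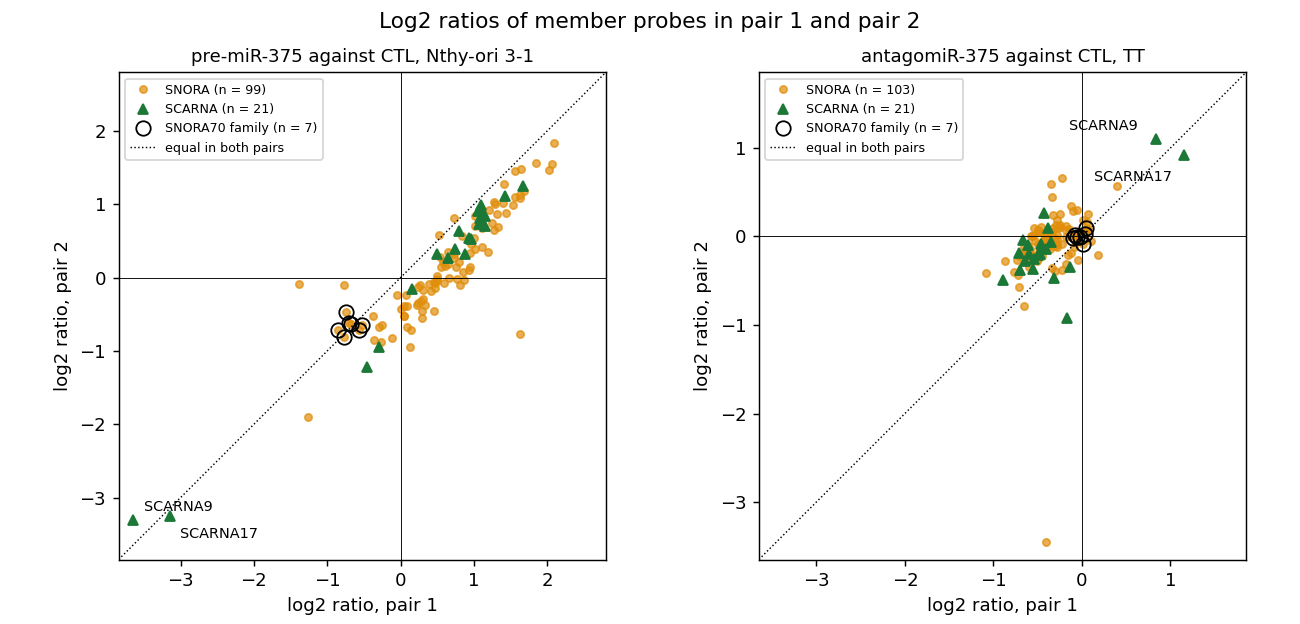
Log2 ratio of each member probe in pair 1 (horizontal axis) and pair 2 (vertical axis) for Nthy-ori 3-1 (left) and TT (right); circles are SNORA, triangles SCARNA, ringed circles the SNORA70 family and the dotted line equality. In Nthy-ori 3-1 most probes lie below the line (medians of 0.66 and 0.14), while the SNORA70 family and SCARNA17 lie close to it.

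Inhibition of the miRNA was examined by comparing antagomiR-375 with CTL in TT. SCARNA9 and SCARNA17 were higher with antagomiR-375, and most other members were slightly lower. The study's list was chosen on these samples too, so the direction of both genes is not independent evidence here either. SCARNA17 had levels of 9.66 and 9.68 with CTL and 10.82 and 10.60 with antagomiR-375. Both treated arrays exceeded both controls, with a log2 ratio of 1.04 (SE 0.12; 1.15 and 0.92 in the pairs), or 2.05-fold. SCARNA9 had levels of 9.86 and 9.57 with CTL and 10.69 and 10.67 with antagomiR-375. Its log2 ratio was 0.97 (SE 0.12), or 1.95-fold, again with no overlap.

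Limma called 0% of the 50587 probes tested at an adjusted p of at most 0.05, and SCARNA9 and SCARNA17 had an adjusted p of 0.512 (0.0713 to 0.571 over the settings tried). With normexp, with the deposited log2 values and with probes well above background only, it also called 0 members, and 0% of all probes tested. An unadjusted p under 0.05 was found for 9 of 152 members (5.92%), against 9.73% of all probes. By the size rule, with a log2 ratio of at least 0.6 in TT, 2 of 124 member probes were higher (2.78% of all probes at that level), namely SCARNA9 and SCARNA17, and 5 of 124 were lower (1.47%). The 5 were the SNORA30, SNORA34 and SCARNA23 probes and the second probes of SNORA2A and SNORA12. Pair 1 alone, without replicate 2, gave 23 lower members and pair 2 alone 2, again with no share of all probes for single pairs. Both pairs were higher for 10 of 124 members (31.3% of all probes) and lower for 76 of 124 (36.3%). The median log2 ratio was -0.23 for the members, -0.35 for SCARNA probes, -0.21 for SNORA probes and -0.01 for all probes.

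SCARNA23 was the SCARNA gene with the lowest value, with levels of 10.45 and 9.95 with CTL and 9.56 and 9.45 with antagomiR-375. Its log2 ratio was -0.69 (SE 0.16, adjusted p = 0.512), and the groups did not overlap. SNORA34, held by KANSL2, had levels of 12.73 and 12.62 with CTL and 12.08 and 11.83 with antagomiR-375, a log2 ratio of -0.72 (SE 0.09). SNORA30 had levels of 9.50 and 8.77 with CTL and 8.41 and 8.35 with antagomiR-375, a log2 ratio of -0.75 (SE 0.24). SNORA79, SNORA22, SNORA15, SNORA27 and SNORA54 had log2 ratios from -0.58 to -0.47. SCARNA1 and SCARNA12 both had -0.54, and the pairs of SCARNA1 were unequal (-0.16 and -0.92).

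Of the other 20 SCARNA genes, 18 were lower in both pairs (36.3% of all probes at the minimum level). In both pairs 0 were higher (31.3%), and 2 were mixed. The log2 ratios of these 20 genes, taken at any level, ran from -0.69 to -0.08. Few SNORA genes were higher. SNORA78 had levels of 6.46 and 6.37 with CTL and 6.85 and 6.94 with antagomiR-375 (log2 ratio of 0.48). It lies in the non-coding gene SNHG9, whose strand was not at hand. SNORA57, SNORA75, SNORA56, SNORA70, SNORA41 and SNORA70C followed with 0.16 to 0.03. The SNORA70 family as a whole lay between -0.05 and 0.07.

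Single arrays decided some values. On the second TT CTL array the second SNORA2A probe read 8.60, against 5.99 and 5.15 on the antagomiR-375 arrays, whereas the RefSeq probe read 7.55 there. Its log2 ratios were -0.41 in pair 1 and -3.45 in pair 2. SNORA66 read 8.51 on the second antagomiR-375 array against 5.28 on the first, with log2 ratios of -0.14 and 3.71. Both TT CTL arrays had an RNA integrity number of 8 in the labels and both antagomiR-375 arrays 9, so RNA integrity and treatment cannot be told apart in TT, while all Nthy-ori 3-1 arrays had 9. The pairs had the same direction in 86 of 124 members (69.4%), against 67.7% of all probes, and medians of -0.39 in pair 1 and -0.08 in pair 2. Among members, replicate 1 exceeded replicate 2 by a median of 0.38 on the TT CTL arrays and 0.03 on the antagomiR-375 arrays, against 0.01 and 0.02 over all probes, and the part of this shift in the ratios was not tested. Their correlation was 0.42 (Pearson) and 0.53 (Spearman) across members, against 0.48 and 0.47 across all probes.

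The treatments in the lines work in opposite senses on the miRNA and share no arrays. Of 118 member probes at the minimum level in both lines, 2 were lower in Nthy-ori 3-1 and higher in TT by the size rules. The share of all 17872 such probes was 0.229%. These 2 were SCARNA9 and SCARNA17, which the study had listed on these same samples, so this count is not independent evidence. Another 2 were higher in Nthy-ori 3-1 and lower in TT (0.101%), the SNORA30 probe and the second SNORA2A probe, and the latter rests on the single TT CTL array given above. Side by side, SCARNA20 had log2 ratios of 1.46 in Nthy-ori 3-1 and -0.45 in TT, and SNORA24 had -1.58 and -0.46.

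**Figure D4:**
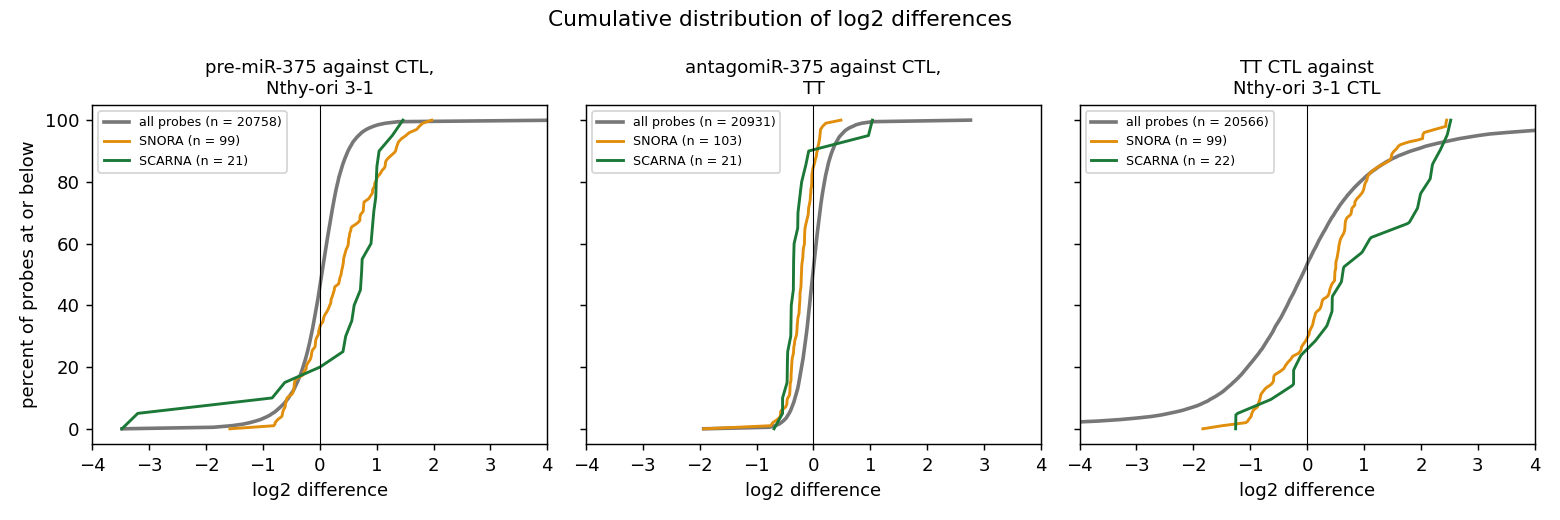
Percent of probes (vertical axis) at or below a log2 difference (horizontal axis) for all probes, SNORA and SCARNA probes with an average level of at least 6, in each comparison; the axis ends at 4 in either direction. The member curves lie to the right of all probes with pre-miR-375 (medians of 0.38 for SNORA and 0.73 for SCARNA against 0.03), to the left with antagomiR-375 and to the right between the lines.

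C/D box small nucleolar RNAs (SNORD) were read on the same arrays. In Nthy-ori 3-1, 112 SNORD probes at the minimum level had a median log2 ratio of -0.45 with pre-miR-375, 0 were higher (1.61% of all probes) and 23 lower (3.23%) by the size rule, against 0.42 and 23 and 3 of 120 for the members. The SNORD median was -0.20 in pair 1 and -0.76 in pair 2. In TT the medians were -0.25 and -0.23. Between the control groups 101 SNORD probes had a median of 0.04. By the size rule 20 were higher in TT (18.7% of all probes) and 22 lower (20.9%), counts near those shares. No test of the difference between SNORD probes and members was run, and the SNORD probes were added after the data were seen.

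The control groups were compared to see how the members differ between the lines at rest. Members tended to be higher in TT. Each of the 4 control arrays was on its own slide and no slide held both lines. The TT CTL arrays had an RNA integrity number of 8 and the Nthy-ori 3-1 CTL arrays 9, so RNA integrity and line cannot be told apart, and fewer cells expressing an RNA and less RNA per cell cannot be told apart in bulk RNA. In limma, 21 of 152 member probes reached an adjusted p of 0.05 or less (18 higher and 3 lower in TT), against 25.8% of all 50584 probes tested. With all 8 arrays and the slide as a random block it was 30, and it also moved when 1 control array was left out. No share of all probes is given for these settings, so they do not set the members apart from other probes. The 3 lower probes were those of SNORA66 (log2 difference of -1.75) and SNORA18 and the second SNORA2B probe, which was not well above background on any of the 4 control arrays, so no value is given for it. With the size rule (an average of at least 6, a log2 difference of at least 1 and groups that do not overlap), 31 of 121 members were higher in TT (18.7% of all probes at that level) and 6 of 121 were lower (20.9%). The lower count was 14 without Nthy-ori 3-1 CTL replicate 2 or TT CTL replicate 1 and 2 without Nthy-ori 3-1 CTL replicate 1. With both criteria, 15 of 121 were higher in TT (15.7% of all probes) and 0 of 121 lower (16.3%). An unadjusted p under 0.05 was found for 56 of 152 members and 37.6% of all probes. The median log2 difference was 0.49 for the members and -0.08 for all probes, and it kept its sign under each setting tried, from 0.21 to 0.68.

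SCARNA23, named above for TT, had levels of 10.45 and 9.95 in TT CTL and 7.82 and 7.53 in Nthy-ori 3-1 CTL, 5.75-fold higher in TT (log2 difference of 2.52, SE 0.26, adjusted p = 0.013). A second, dimmer probe of that name, placed on chromosome 14 rather than X, gave -1.52 with an adjusted p of 0.39. SCARNA16 was read by 2 probes of identical sequence, a technical repeat, and these gave 2.34 and 2.46 (adjusted p of 0.02 and 0.0135). SCARNA20 had levels of 12.08 and 11.54 in TT CTL and 9.91 and 9.30 in Nthy-ori 3-1 CTL, with a log2 difference of 2.20 (adjusted p = 0.0288). SCARNA11 (2.16, adjusted p = 0.0422), SCARNA22 (1.99, 0.0449) and SCARNA3 (1.11, 0.0489) were also higher in TT. Of the 20 SCARNA genes apart from SCARNA9 and SCARNA17, 10 were higher in TT without overlap (27.8% of all 50584 probes), 3 were lower (37.6%) and 7 overlapped.

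Among SNORA genes, SNORA47 was higher in TT (log2 difference of 2.44, adjusted p = 0.0165), and its host ZBED3 had a log2 difference of 1.24. SNORA44, in SNHG12, was also higher (2.03, adjusted p = 0.0383). SNORA12 gave 2.45 (adjusted p = 0.0335) with its RefSeq probe, with 12.12 and 11.69 in TT CTL and 9.90 and 9.01 in Nthy-ori 3-1 CTL, but its second probe gave -1.49, so its direction depended on the probe. SNORA28 (2.44), SNORA11 (2.23) and SNORA30 (2.04) were past the size rule with adjusted p of 0.116, 0.104 and 0.0548. SNORA28 had levels of 9.54 and 7.69 on the Nthy-ori 3-1 CTL arrays, the widest spread of these genes.

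SCARNA9 had a log2 difference of -1.25 between TT CTL and Nthy-ori 3-1 CTL (SE 0.32, adjusted p = 0.0803), and its groups did not overlap. SCARNA17 had 0.15 (SE 0.35, adjusted p = 0.813), and its groups overlapped. SCARNA9L had -1.26 (adjusted p = 0.069). SNORA11D, held by a MAGED4 gene, was lower in TT by the size rule (-1.83, adjusted p = 0.0966), as was SNORA71C (-1.03, adjusted p = 0.0941), whose second probe gave -0.38. SNORA75, held by the nucleolin gene NCL, had a log2 difference of -0.98, SNORA71B of -0.84 and SNORA40 of -0.82, with adjusted p of 0.254, 0.167 and 0.141, and in each both TT CTL arrays lay below both Nthy-ori 3-1 CTL arrays. The 5 genes held by TAF1D, SNORA1, SNORA8, SNORA18, SNORA25 and SNORA32, lay between -0.94 and -0.73 in TT, beside -0.81 for TAF1D, and of these SNORA18 had an adjusted p of 0.0337. With pre-miR-375 the same 5 genes were not uniform, with log2 ratios from -0.57 to 1.15.

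Host genes were set beside the members they hold. RefSeq gave 101 of the 125 genes a host on the same strand and another 19 a gene whose strand was not at hand, and the brightest probe of each host was used. In Nthy-ori 3-1, 100 member genes and their 82 hosts were both at the minimum level. The median log2 ratio was 0.46 for these members and -0.17 for their hosts, with a host counted once for each member it holds. Over the 82 distinct hosts it was -0.09. Of the members, 54 were higher with a lower host, 20 higher with a higher host, 20 lower with a lower host and 6 lower with a higher host. The correlation between member and host across these genes was -0.02 (Pearson). SCARNA9 is held by CEP295, which had a log2 ratio of 0.46 with pre-miR-375 and 0.01 with antagomiR-375, against -3.48 and 0.97 for SCARNA9. SCARNA17 lies at the start of the non-coding gene SNHG22, for which the array has 0 probes of its own, so a change of SNHG22 and of SCARNA17 cannot be told apart. In TT the median was -0.24 for members and 0.00 for hosts, and between control groups 0.55 and -0.28.

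**Figure D5:**
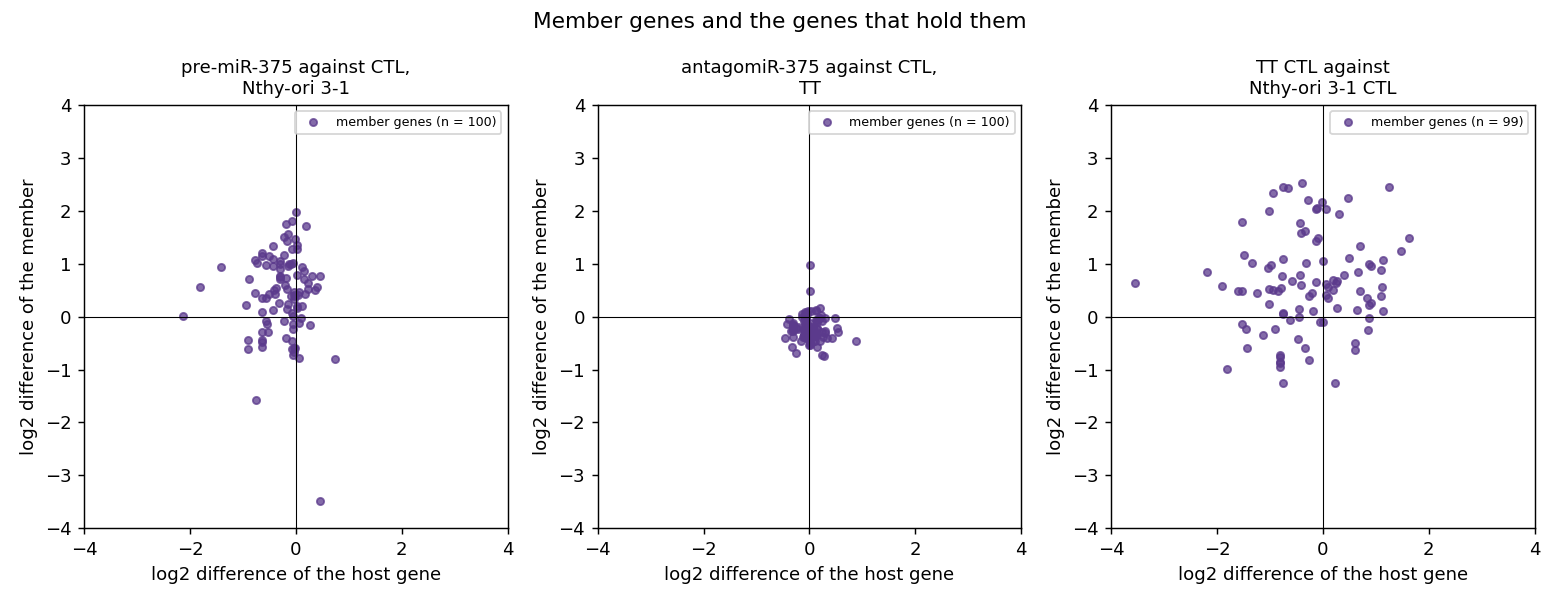
Log2 difference of each member gene (vertical axis) against that of the gene that holds it (horizontal axis), for members and hosts with an average level of at least 6, in the 3 comparisons. With pre-miR-375 most points lie above 0 on the vertical axis and close to or left of 0 on the horizontal one (54 of 100 members higher with a lower host and 20 with a higher one), without a trend between the axes (r of -0.02).

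Proteins of the small nucleolar particle and the Cajal body were taken from a list of 35 genes, all on the array. With pre-miR-375, 0 of 35 had an adjusted p of at most 0.05 in limma, as had 0% of all probes. By the size rule 0 of 33 at the minimum level were higher (1.61% of all probes) and 2 lower (3.23%), counts near those shares. These were GAR1, a core H/ACA protein (log2 ratio of -1.51, SE 0.10), and NOLC1, a chaperone of nucleolar particles (-1.47, SE 0.11). DKC1, the pseudouridine synthase, had -0.74 and NOP10 0.27, while NHP2 had 0.00. COIL, the coilin scaffold of Cajal bodies, had 0.13 and WRAP53, which brings SCARNA RNAs there, 0.07. The median over the list was -0.24, against 0.03 for all probes. With antagomiR-375, 0 of 33 were past the size rule in either direction (2.78% of all probes higher and 1.47% lower). In limma 0 of 35 had an adjusted p of at most 0.05, as had 0% of all probes. NOLC1 was at 0.34 and COIL at -0.40, and the median was -0.04. Between the control groups 3 of 35 were higher in TT and 8 lower at an adjusted p of at most 0.05 in limma, a share near the 25.8% of all probes. TERC, the telomerase RNA, which carries an H/ACA domain, was higher in TT (log2 difference of 1.30, adjusted p = 0.018), and NOLC1 (-1.70, adjusted p = 0.0179) and NOP56, a core C/D protein (-1.34, adjusted p = 0.0157), were lower. TERC had 0.03 with pre-miR-375 and -0.20 with antagomiR-375.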

How the data were processed

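RNA of 4 groups was hybridized to 8 one-colour arrays. The authors deposited the Feature Extraction 10.10.1.1 output of each array, with spot intensity values not normalized between arrays (hg19 annotation), and 1 table of normalized log2 values, which follows the log2 median intensity and shares 1 distribution within each line. The submitters' processing notes name limma. No column of another sample was present.

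The log2 processed intensity was used, spots flagged as outliers (341 to 428 per array) and control spots were left out, repeat spots were reduced to their mean, and quantile normalization ran over the 8 arrays (limma 3.58.1, R 4.3.3). limma (lmFit, eBayes) was run on each line separately and included the replicate number, which marks a shared slide, as a block. Control groups were compared without a block. p were adjusted by Benjamini-Hochberg over all probes of a fit. Deviations of equal-numbered arrays from their group means correlated over probes (r = 0.83 in Nthy-ori 3-1 and 0.38 in TT). Prior degrees of freedom were 0.99, 1.13 and 1.26. The descriptions of the TT arrays carry other numbers than their titles, but join the same arrays into pairs. The fits were tested on simulated data, where ratios were recovered but no change in either line passed the adjusted p.

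Named genes were SCARNA9, SCARNA17 and, at an average of at least 6, the 10 highest and 10 lowest in each comparison with the same direction in both pairs (between controls, without this condition), by the brightest probe. Members, gene lists and tests were chosen with earlier results of these data known. Alternatives were no block, normexp (offset of 50), the deposited table, scaling to the 75th percentile, quantile normalization within a line, a detection filter, other fits, left-out replicates, 1 probe per gene and no expression minimum. RefSeq names and hosts (GRCh38.p14) were matched by accession for 122 genes and by symbol for 3; 10 have another current symbol.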

Additional observations from a re-analysis of the deposited data

How the results depend on the processing

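Of 164 alternative values, 133 kept their direction and side of the threshold or stayed close to the main value, and 0 reversed. Many of these could not move. Fits without a block, other fits and the detection filter left the size-rule counts, medians and log2 ratios as they were. A count could not reverse either, so the tally does not measure stability. With normexp, 15 members instead of 23 were higher and 29 instead of 0 passed the adjusted p with pre-miR-375, SCARNA9 and SCARNA17 passed it at log2 ratios of -3.05 and -2.50, and between controls 3 instead of 6 were lower, the median was 0.27 and 43 instead of 21 passed the adjusted p. With the deposited log2 values, 6 members passed with pre-miR-375, SCARNA9 and SCARNA17 among them at -3.02 and -2.64. Among probes well above background in at least 1 group, 15 members passed with pre-miR-375 (1 of them, a SNORA70B probe, through CTL alone), SCARNA9 and SCARNA17 among them at -3.48 and -3.20, and 42 between controls; fewer probes were tested. The cause of the other shifts was not tested. For the counts of 43 and 42 between controls no share of all probes is given, so they do not set the members apart from other probes.

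Without the replicate block, 0 members passed the adjusted p in either line, which says nothing about stability since the fits with the block made no calls. The log2 ratios of SCARNA9 and SCARNA17 (-3.48 and -3.20 in Nthy-ori 3-1, 0.97 and 1.04 in TT) do not depend on the block by construction. Leaving out a replicate, which leaves 1 pair and no test, gave 16 to 40 higher and 4 lower members with pre-miR-375, and 2 to 4 higher and 2 to 23 lower with antagomiR-375; the 40 and the 23 came from pair 1 alone. Leaving out 1 control array at a time gave 2 lower members without Nthy-ori 3-1 CTL replicate 1 and 14 without its replicate 2 or TT CTL replicate 1. The medians ran from 0.21 to 0.68. The lone array is then assumed to vary like the other group, so no adjusted p is given. With 1 probe per gene, 3 instead of 5 members were lower with antagomiR-375. With no expression minimum, 7 were lower with pre-miR-375, 4 were higher with antagomiR-375 and 13 were lower between controls. The deposited table was not used between lines, since it was normalized within each. Members near background give no reliable ratio.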
